A study of Mus musculus with 6 samples.

Results

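Proteasome genes were described in retinas of 4-month-old C57BL/6J mice, as measured by poly-A RNA sequencing of 3 wild-type libraries (WT1A, WT2A and WT2B) and 3 libraries of mice that carry Elovl2(C234W), a substitution in the elongase that lengthens polyunsaturated fatty acids (FS3A, FS3B and FS5A). Members were the protein-coding genes whose symbol starts with Psm, a letter from a to g and a digit. The interferon-inducible catalytic subunits Psmb8, Psmb9 and Psmb10 were left out. The rule gave 47 of 25124 gene models, with 8 alpha-ring genes (Psma), 8 beta-ring genes (Psmb), 6 ATPase genes (Psmc1 to Psmc6), 14 Psmd genes, 6 activators and inhibitors (Psme and Psmf1) and 4 assembly chaperones (Psmg). It also matched Psmc3ip by name, which encodes a meiotic recombination factor and no proteasome subunit. The labels give neither zygosity nor sex, nor how many animals the libraries stand for. WT2A and WT2B share a number in their column names, as do FS3A and FS3B, so p-values measure the spread between these libraries, which may be technical. The prefix FS is not explained in the labels and was taken as C234W by elimination, since the count table's header names 3 libraries of each genotype, and the direction of each difference rests on this.

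The proteasome degrades proteins tagged with ubiquitin. Its barrel-shaped core particle has outer rings of alpha subunits, which gate the entry, and inner rings of beta subunits, of which Psmb6, Psmb7 and Psmb5 carry the caspase-like, trypsin-like and chymotrypsin-like active sites. The regulatory particle caps the barrel: a ring of ATPases unfolds the substrate, and non-ATPase subunits bind and remove ubiquitin. When proteasome activity falls short, the transcription factor NFE2L1 raises many subunit genes together through antioxidant response elements. Photoreceptors renew their outer segments throughout life and turn over much protein.

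Promoter windows from RefSeq (GRCm38.p6, the mm10 assembly; 250 bases before to 50 after the transcript start) were matched for 39 of the 47 genes. The windows of 4 genes are shown because Psmb6 and Psmb5 encode catalytic subunits, Psmd9 had the smallest p among all members, and Psme4 was the member whose level was higher in every C234W library. Psmb7, the remaining catalytic gene, had no matched window. Capitals mark TGACNNNGC, the core of the antioxidant response element, found on either strand; CCAAT, the box of the factor NF-Y, was also searched on both strands and is in none of the 4 windows. The positions are chr11:70525107-70525406 on the plus strand for Psmb6, chr14:54617946-54618245 on the minus strand for Psmb5, chr5:123227940-123228239 on the plus strand for Psmd9 and chr11:30771525-30771824 on the plus strand for Psme4. Sequences run 5′ to 3′ on the strand of the gene.
Psmb6: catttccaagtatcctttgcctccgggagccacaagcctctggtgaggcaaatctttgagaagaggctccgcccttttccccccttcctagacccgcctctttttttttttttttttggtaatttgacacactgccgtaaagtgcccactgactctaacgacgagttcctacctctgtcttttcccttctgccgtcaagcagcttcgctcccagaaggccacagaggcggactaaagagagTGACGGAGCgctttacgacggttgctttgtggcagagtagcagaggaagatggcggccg
Psmb5: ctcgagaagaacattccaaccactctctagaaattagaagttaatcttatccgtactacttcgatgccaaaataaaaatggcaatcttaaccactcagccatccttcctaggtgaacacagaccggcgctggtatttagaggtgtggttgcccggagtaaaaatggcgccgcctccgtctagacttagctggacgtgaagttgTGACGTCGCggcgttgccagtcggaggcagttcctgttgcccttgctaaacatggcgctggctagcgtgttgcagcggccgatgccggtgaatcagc
Psmd9: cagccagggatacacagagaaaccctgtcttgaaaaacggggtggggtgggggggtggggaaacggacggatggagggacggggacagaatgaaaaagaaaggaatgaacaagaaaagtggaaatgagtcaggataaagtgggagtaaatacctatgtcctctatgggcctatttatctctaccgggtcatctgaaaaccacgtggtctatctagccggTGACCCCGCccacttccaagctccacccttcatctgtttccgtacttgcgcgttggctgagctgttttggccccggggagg
Psme4: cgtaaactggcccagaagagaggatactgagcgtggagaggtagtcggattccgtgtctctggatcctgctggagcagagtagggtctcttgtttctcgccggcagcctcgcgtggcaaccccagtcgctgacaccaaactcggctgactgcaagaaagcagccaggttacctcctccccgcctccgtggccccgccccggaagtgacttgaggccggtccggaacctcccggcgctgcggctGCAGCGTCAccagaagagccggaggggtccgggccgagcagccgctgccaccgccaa
Of 38 tested members with a window, 6 held TGACNNNGC (15.8%), against 14.3% of the windows of 11464 tested genes. CCAAT was in 12 of the 38 (31.6%), against 38.3%. Both shares lay near those of all tested genes, and no window of a member held both motifs. The match begins 9 bases upstream of the start in Psmb6 (TGACGGAGC), 47 bases upstream in Psmb5 (TGACGTCGC), 31 in Psmd9 (TGACCCCGC) and, on the opposite strand, 7 in Psme4 (GCAGCGTCA). All windows shown were among the 6 with a match, and the other members with a match were Psmc6 and Psmd12. A match describes letters only and does not show binding.

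Levels are given as CPM, the counts of a gene scaled to the size of its library after adjustment by trimmed mean of M-values, and for comparing genes as CPM per kilobase of the counted transcript. In wild-type retinas the beta-ring genes were the highest subgroup, with a median of 119 CPM per kilobase, followed by the ATPases with 76.7 and the alpha ring with 51.4. The Psmd genes had a median of 42.5, the activators and Psmf1 16.1 and the assembly chaperones 12.4. Psmb6 was the highest member, at 180.6 ± 7.45 CPM per kilobase, and Psmb4, a structural beta subunit, reached 167.9 ± 9.85 (SD, n = 3 each). The ranges of these 2 genes over the wild-type libraries overlapped. Beta-ring levels spanned 3.13-fold from Psmb3 to Psmb6, and ATPase levels 2.44-fold from Psmc4 to Psmc5. The alpha ring spanned 15.2-fold, from 8.21 ± 2.03 for Psma5 to 125 ± 24.6 CPM per kilobase for Psma6 (SD, n = 3 each), although the rings hold these subunits in equal number. RefSeq lists 6 pseudogenes of 4 members, 1 of Psma5, 1 of Psmb5, 2 of Psmb6 and 2 of Psmb7. Only uniquely mapped tags were counted, so the absolute levels of those members are uncertain, and so are those of Psme2 and its near-identical copy Psme2b. The germline alpha subunit Psma8 had 3 counts in FS3A and 0 in the other libraries. The thymic beta subunit Psmb11 had 0 counts over the 6 libraries, which allows a level of up to 0.0293 CPM for counting error alone.

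**Figure D1:**
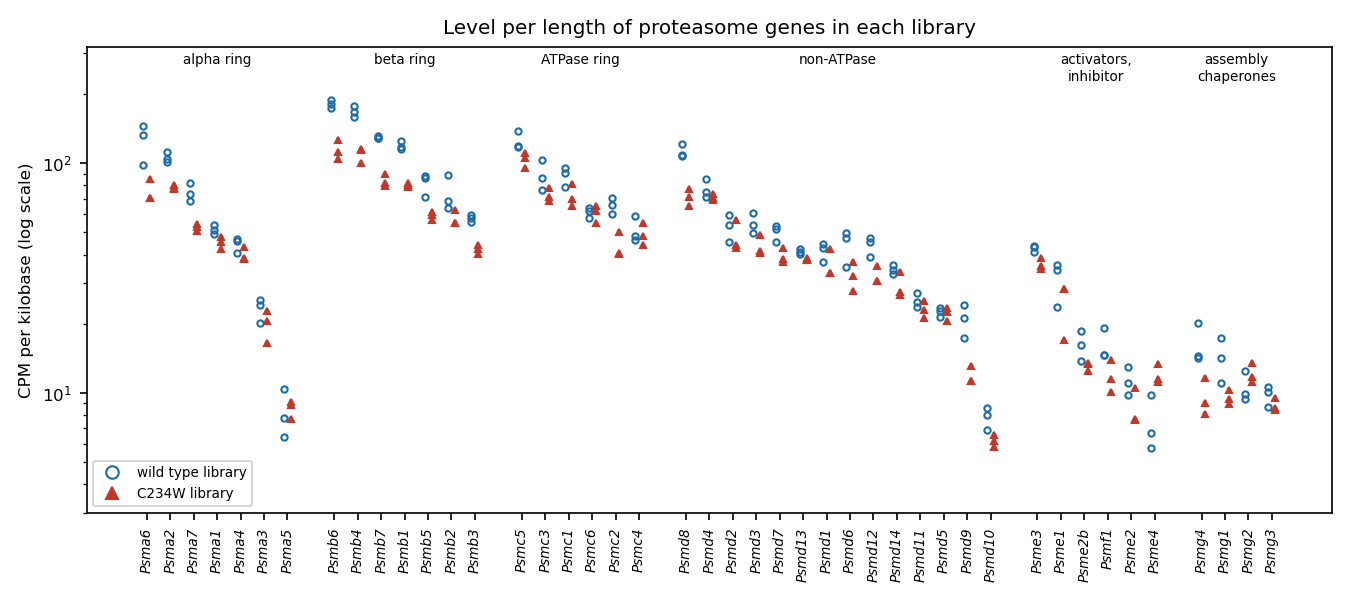
Level of each tested proteasome gene in CPM per kilobase (vertical axis, log scale) in the 3 wild-type libraries (open circles) and the 3 C234W libraries (triangles), by subgroup and ordered by mean level. The beta-ring genes sit highest, led by Psmb6, and for each of the 7 the C234W libraries lie below the wild-type libraries.

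No member passed the test for a difference between genotypes, while most were lower in C234W. Of 45 members tested, 0 passed in edgeR at an adjusted p under 0.05 (quasi-likelihood test, Benjamini-Hochberg over 14685 genes), where 1.82% of all tested genes did. The smallest adjusted p was 0.0531, for Psmd9. By limma-voom 0 members passed (1.63% of all genes, 1.4% lower and 0.232% higher), and by DESeq2 10 passed as lower and 1 as higher, against 7.24% and 4.71% of all genes. At an unadjusted p under 0.05 in edgeR, 18 of the 45 were lower and 1 was higher, that is 40% lower against 13.7% of all tested genes (12.2% higher). The 3 C234W values lay below the 3 wild-type values for 25 members and above them for 1, where 16.4% and 12.6% of all tested genes separated in those directions. The log2 fold change of C234W relative to wild type was negative for 42 members and positive for 3 (Psme4, Psmg2 and Psma5), with a median of -0.34 against 0.024 over all tested genes. Scaling by total counts moved that median of all genes to 0.205, and relative to it the members' median was -0.36, as against -0.37 with the main scaling. With total counts 33 members were then negative and 12 positive. In bulk tissue, fewer cells of a type and less RNA per cell cannot be told apart.

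Transcript length moved with genotype across the whole data set, and most proteasome transcripts are short. Of the 45 members, 33 have transcripts of up to 1671 bases, the shortest 20% of tested genes, in which the median log2 fold change was -0.34. In the longest 20% it was 0.28, and Psme4, with 6393 bases, was the 1 member in it. Each member was therefore set beside the median of all other tested genes whose length lay within 20% of its own. The median member differed from its genes of like length by -0.081 on the log2 scale, and 27 of 45 lay below them. With the length trend of each library removed by an offset, 34 members were negative and 11 positive, with a median of -0.15 against -0.048 over all genes. At an unadjusted p under 0.05, 7 members were then lower and 0 higher. Of all genes 13.6% were lower and 7.29% higher, so only the lower share was near that of all genes. After this correction edgeR called 0 members and 1 gene in all (0.00681%).

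**Figure D2:**
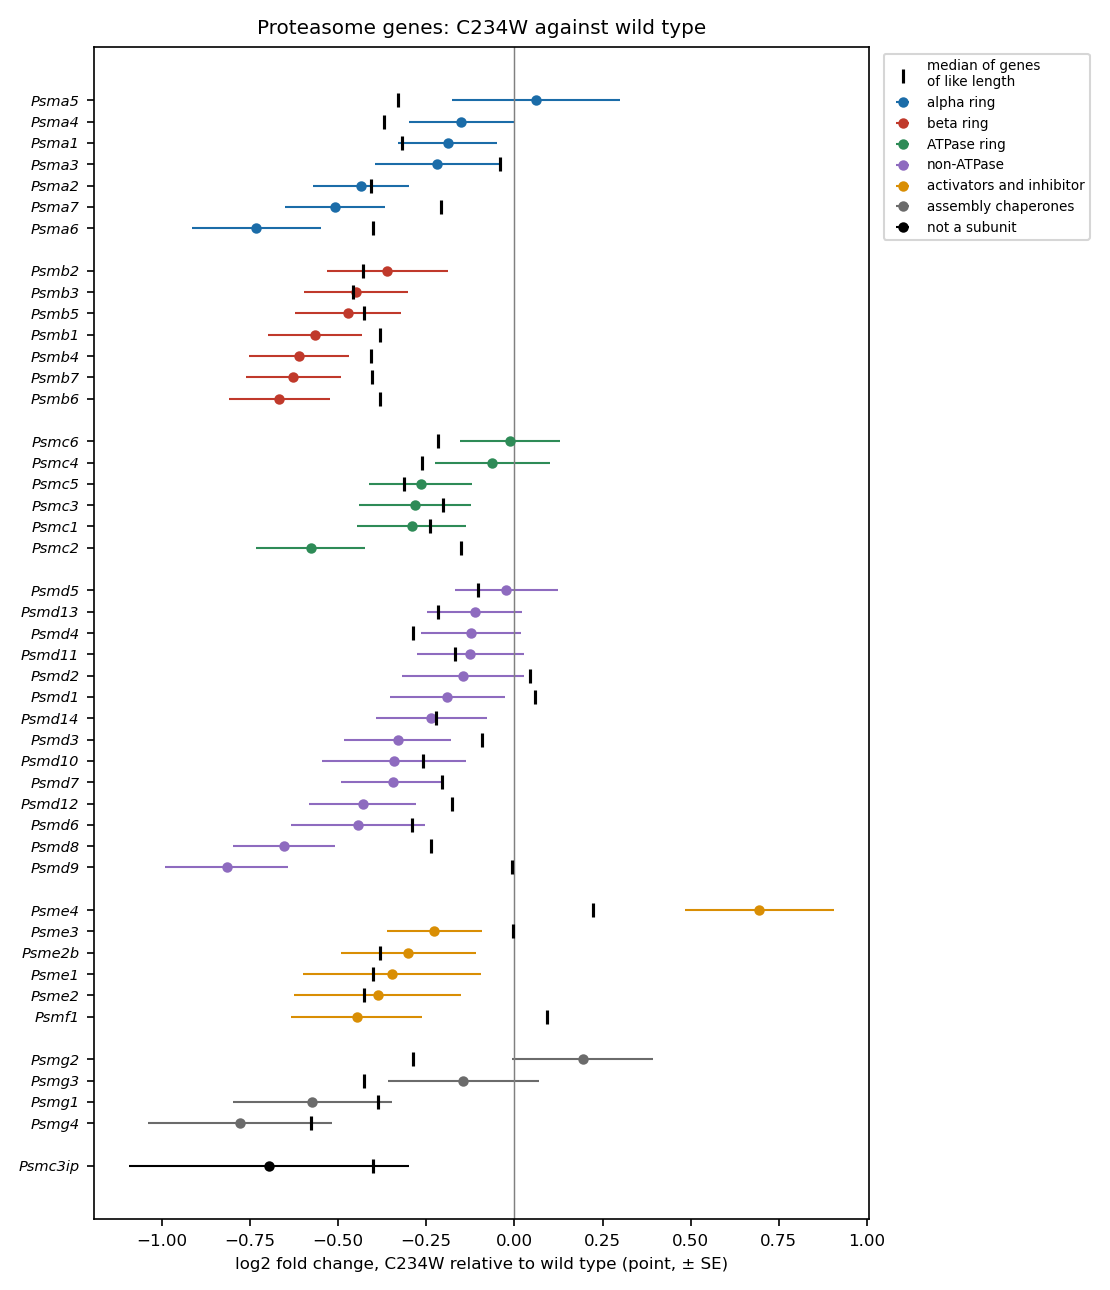
Log2 fold change of C234W relative to wild type for each of the 45 tested members (points, ± SE), by subgroup, with the median of genes of like length as a black tick. All 7 beta-ring points are left of 0, and Psmd9 lies farthest to the left of its tick.

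Core particle genes were lower in C234W in sum, and the beta ring spanned a narrower range of differences than the alpha ring. Over 14 tested core genes the median log2 fold change was -0.46 (a change of -27.4%), with 13 negative and 11 whose groups did not overlap, all 11 lower. Groups were apart as lower for 16.4% of all tested genes and for 27.9% of other genes in the length range of the core (723 to 2385 bases). That range is not matched to the core, whose median length is 1008 bases, and its median log2 fold change was -0.20. In the range of the beta ring (723 to 1028 bases) 43.3% were apart as lower. Genes of like length to the core had a median of -0.39, and the median difference from them was -0.11. Summed over the core genes, the wild-type libraries held 1295, 1256 and 1295 CPM (WT1A, WT2A and WT2B) and the C234W libraries 914, 908 and 879.6 (FS3A, FS3B and FS5A). The 6 sums form separate groups, and within each genotype they differ little.

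All 7 tested beta-ring genes were lower in every C234W library than in any wild-type library, and 6 of them at an unadjusted p under 0.05, all but Psmb2. Their log2 fold changes ran from -0.67 to -0.36, with a median of -0.57. The 603 other tested genes of 723 to 1028 bases had a median of -0.42. In that length range 43.3% of genes separated as lower and 39.1% were lower at an unadjusted p under 0.05. Psmb6, the caspase-like subunit (chromosome 11, 70525357 to 70527858, plus strand), was measured at 193.3, 177.9 and 185.7 CPM in WT1A, WT2A and WT2B and at 129.1, 106.7 and 115 CPM in FS3A, FS3B and FS5A. The highest C234W library was well under the lowest wild-type library. Its log2 fold change was -0.67 (SE 0.144, edgeR adjusted p = 0.0531) and -0.39 (unadjusted p = 0.02) with the length trend removed. Psmb7, the trypsin-like subunit (chromosome 2, 38588046 to 38643906, minus strand), stood at 125.3, 123.3 and 123.3 CPM in wild type and 78.7, 85.9 and 76.1 CPM in C234W, in the same order of libraries. Its wild-type values were the closest to each other of any beta-ring gene, and the groups were apart, with a log2 fold change of -0.63 (SE 0.136, edgeR adjusted p = 0.0534). With the length trend removed Psmb7 was at -0.32 (edgeR unadjusted p = 0.0514). Psmb5, the chymotrypsin-like subunit and the target of bortezomib (chromosome 14, 54614120 to 54617995, minus strand), had 76.3, 61.9 and 74.5 CPM in wild type and 53.1, 48.8 and 51.3 CPM in C234W. Its log2 fold change of -0.47 (SE 0.15) was near the -0.43 of genes of like length. Whether the catalytic genes differ from each other in their response was not tested.

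Among the structural beta subunits, Psmb4 and Psmb1 had log2 fold changes of -0.61 and -0.57 (SE 0.142 and 0.134). With the length trend removed these were -0.30 and -0.28. Psmb3, at 41.7 ± 1.33 and 30.5 ± 1.43 CPM in wild type and C234W (SD, n = 3 each), was the lowest beta-ring gene per length and differed by 0.0072 from its genes of like length on the log2 scale. Psmb2 had the smallest difference of the ring. It was measured at 74.5, 53.5 and 57.2 CPM in wild type and 45.9, 52.4 and 46 CPM in C234W, with WT1A far above the other wild-type libraries and FS3B just under WT2A. Its log2 fold change was -0.36 (SE 0.173), and -0.012 with the length trend removed.

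The alpha ring was mixed. Its 7 tested genes had a median log2 fold change of -0.22, from -0.73 for Psma6 to 0.062 for Psma5. Of them 4 had groups apart, all lower, as did 26.4% of other genes in its length range and 16.4% of all tested genes. That range (936 to 2385 bases) had a median of -0.19 and genes of like length -0.33, so the 26.4% is not matched for length. Psma6 was measured at 96.6, 130.6 and 143.8 CPM in WT1A, WT2A and WT2B and at 69.6, 84.2 and 69.4 CPM in FS3A, FS3B and FS5A. WT1A was the lowest wild-type library here and still lay above each C234W library. The log2 fold change was -0.73 (SE 0.184, edgeR adjusted p = 0.0644), lower than genes of like length by -0.33. Psma7 had 115.7, 129.7 and 108.6 CPM in wild type and 85.5, 79.9 and 83.2 CPM in C234W, a log2 fold change of -0.51 (SE 0.141, edgeR adjusted p = 0.078). Psma2 followed with -0.44 (SE 0.135), close to the -0.41 of its genes of like length. At the other end, Psma5 was level between genotypes within its spread, with 12.6, 9.42 and 7.72 CPM in wild type and 10.7, 11 and 9.27 CPM in C234W, and a log2 fold change of 0.062 (SE 0.239). Psma1, Psma3 and Psma4 had log2 fold changes from -0.22 to -0.15. Over the whole ring the median difference from genes of like length was -0.027. Of the 7 genes 4 lay below them, and Psma5 lay farthest above, by 0.39.

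Regulatory particle genes had smaller differences than core genes, and whether the particles differ was not tested. The 20 tested genes were all negative (13 of 20 with scaling by total counts), with a median of -0.27 (-17.3%), 6 at an unadjusted p under 0.05, and 9 with groups apart, all lower. Of other genes in this length range 15.8% were lower at that p and 19.6% were apart as lower, and of all tested genes 13.7% and 16.4%. Genes in that range (1264 to 3229 bases) had a median of -0.078, so these shares are not matched for length. Genes of like length had -0.21, and the median difference from them was -0.082. The 20 include the assembly chaperones Psmd5, Psmd9 and Psmd10. The 17 genes without them had a median of -0.27, with 5 lower at an unadjusted p under 0.05 (29.4%) and 7 apart as lower (41.2%). The sums over all 20 genes were 1937, 1792 and 1911 CPM in WT1A, WT2A and WT2B and 1489, 1675 and 1461 CPM in FS3A, FS3B and FS5A. FS3B lay nearest to wild type, though still below WT2A. The ratio of the core sum to the regulatory sum within a library was 0.668, 0.701 and 0.678 in wild type and 0.614, 0.542 and 0.602 in C234W, so each C234W library had the smaller ratio. Core transcripts, with a median of 1008 bases, are shorter than those of the regulatory particle, with 1569.5 bases, and the part of length in this ratio was not tested. With the length trend removed the medians of core and regulatory particle were -0.18 and -0.16.

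In the ATPase ring, which drives unfolding, 1 of 6 genes was at an unadjusted p under 0.05, a share (16.7%) near the 13.7% of all tested genes and under the 22.7% of other genes in its length range. That gene, Psmc2, stood at 107.1, 116.3 and 124.8 CPM in wild type and 71.6, 89.5 and 72.1 CPM in C234W. Its groups were apart, and its log2 fold change of -0.58 (SE 0.155, edgeR adjusted p = 0.0728) was lower by -0.43 than that of genes of like length. Psmc1, next by p, had 141.3, 116 and 134 CPM in wild type and 103.4, 119.9 and 96.5 CPM in C234W, where FS3B overlapped with WT2A, and a log2 fold change of -0.29 (SE 0.155). Psmc5, the highest ATPase gene per length, had 174.5, 149.1 and 150.5 CPM in wild type and 133.2, 140.4 and 120.7 CPM in C234W. Its groups were apart by a narrow margin, with a log2 fold change of -0.27 (SE 0.146). Psmc6 and Psmc4 differed by less than their spread between libraries. Psmc6 had 98.6, 95.6 and 89.3 CPM in wild type and 100.3, 84.7 and 96.1 CPM in C234W (log2 fold change -0.013, SE 0.142). Psmc4 had 84.1, 68.4 and 66 CPM in wild type and 62.5, 78.4 and 68.2 CPM in C234W (-0.062, SE 0.164). Over the whole ring the median difference from genes of like length was -0.0019, and 3 of the 6 genes lay below them.

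Over the 14 Psmd genes the median log2 fold change stood at -0.28, and 5 were lower at an unadjusted p under 0.05. This was so for 15.4% of other genes in their length range and 13.7% of all tested genes. That range had a median of -0.070 and genes of like length -0.19, so the 15.4% is not matched for length. Psmd9, a chaperone that helps assemble the ATPase ring and is absent from the finished particle (chromosome 5, 123228190 to 123250125, plus strand), had the most negative value of all members. It was measured at 44.6, 55 and 62.2 CPM in WT1A, WT2A and WT2B and at 29.1, 29.1 and 33.7 CPM in FS3A, FS3B and FS5A. The C234W libraries were close together and below each wild-type library. Its log2 fold change was -0.82 (SE 0.175, edgeR adjusted p = 0.0531) while genes of like length had -0.0072, and with the length trend removed it was -0.85 (unadjusted p = 0.00103). Psmd8, a lid subunit (chromosome 7, 29174187 to 29180673, minus strand), had 182.4, 162.3 and 160.7 CPM in wild type and 107.1, 116.2 and 97.8 CPM in C234W. Its groups were far apart for their spread, with a log2 fold change of -0.65 (SE 0.145, edgeR adjusted p = 0.0545) and -0.49 with the length trend removed (unadjusted p = 0.00766).

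The remaining Psmd genes can be read by their place in the particle, a split chosen after the values were seen. The 8 lid genes (Psmd3, Psmd6, Psmd7, Psmd8, Psmd11, Psmd12, Psmd13 and Psmd14) had a median of -0.34. Their median difference from genes of like length was -0.15, and 5 were apart as lower (62.5%). This was so for 16.4% of all tested genes and 19.6% of other genes in the length range of the regulatory particle. In the range of the ATPases (1264 to 1778 bases) it was 27.6%. The share in the lid's own range (1327 to 2133 bases) was not computed. The 9 genes of the base are the 6 ATPases with the scaffolds Psmd1 and Psmd2 and the ubiquitin receptor Psmd4. Their median was -0.19, and their median difference from genes of like length was -0.051. In the base 2 were apart as lower, a share (22.2%) between the same 19.6% and the 27.6% in the range of the ATPases. Whether lid and base differ was not tested. The lid's deubiquitinase Psmd14 was at -0.24 (SE 0.157) and Psmd4 at -0.12 (SE 0.142), both near or above their genes of like length. Of the other assembly chaperones in this group, Psmd10 (gankyrin), the lowest Psmd gene per length, had 12.5, 10 and 11.6 CPM in wild type and 9.53, 8.92 and 8.41 CPM in C234W. Its groups were apart, but its log2 fold change of -0.34 (SE 0.205) was close to the -0.26 of genes of like length. Psmd5 differed least of the Psmd genes, with 46.2, 43.2 and 47.4 CPM in wild type and 41.6, 47.6 and 45.5 CPM in C234W (-0.022, SE 0.146). The 3 chaperones of the ATPase ring therefore had values from -0.82 to -0.022.

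**Figure D3:**
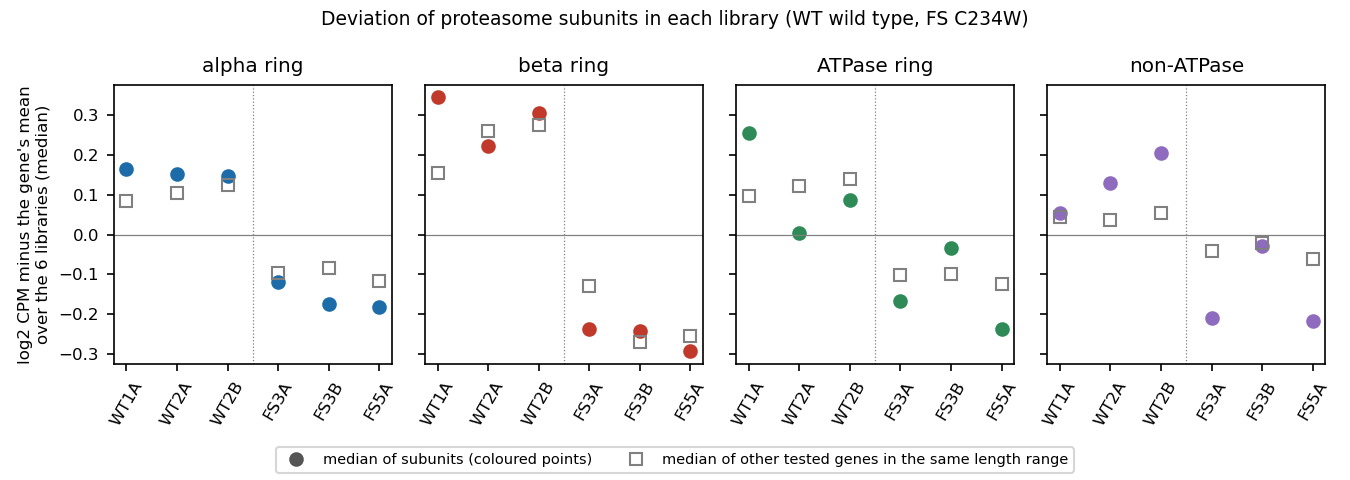
Median over subunits of log2 CPM minus each gene's mean over the 6 libraries (filled points) in each library, for 4 subgroups, with the same median over other tested genes in the subgroup's length range (open squares). The alpha and beta rings lie above 0 in each wild-type library and below 0 in each C234W library, with the squares on the same side. FS3B is near 0 for the ATPase and non-ATPase genes, and WT2A is near 0 for the ATPase genes.

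Activators open the core in place of the regulatory particle. Of the 6 genes of the activators and Psmf1, 5 were negative and 1, Psme4, was positive. The groups were apart for 3 as lower and 1 as higher, against 16.4% and 12.6% of all tested genes. Without WT1A 5 were apart as lower and 1 as higher, against 26.7% of all genes each way. Their median difference from genes of like length was 0.046 with all libraries. Psme4 encodes PA200, a nuclear activator linked to acetylated histones (chromosome 11, 30771775 to 30880361, plus strand). It was the 1 member higher in each C234W library, at 62.6, 42.8 and 36.6 CPM in WT1A, WT2A and WT2B and 85.4, 73.5 and 71.1 CPM in FS3A, FS3B and FS5A. WT1A was the wild-type library nearest to C234W. The log2 fold change was 0.69 (SE 0.211, edgeR adjusted p = 0.0931), above the 0.22 of genes of like length, and 0.43 with the length trend removed (unadjusted p = 0.0564). Psme3, the nuclear PA28 gamma, had 115.2, 109.1 and 114.3 CPM in wild type and 102.6, 92.1 and 94.5 CPM in C234W. Its groups were apart although the difference was small (-0.23, SE 0.135). The interferon-inducible PA28 subunits Psme1 and Psme2 had log2 fold changes of -0.35 and -0.39 (SE 0.252 and 0.238) with overlapping groups. Psmf1 encodes PI31, first described as a proteasome inhibitor, and had 51.8, 51.8 and 68.1 CPM in wild type and 35.9, 49.2 and 40.7 CPM in C234W. FS3B came close to the wild-type range. Its log2 fold change was -0.45 (SE 0.186, edgeR adjusted p = 0.173) and -0.58 with the length trend removed (unadjusted p = 0.0121), since genes of its length had 0.092.

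The chaperones that build the alpha ring were low in level and unlike each other. Psmg4 had 7.97, 11.1 and 7.8 CPM in wild type and 6.35, 4.46 and 4.94 CPM in C234W, a log2 fold change of -0.78 (SE 0.261, edgeR adjusted p = 0.116). It is the shortest member, with 549 bases, and genes of like length had -0.58. Psmg1 had 11.4, 14.7 and 18 CPM in wild type and 9.74, 9.3 and 10.6 CPM in C234W (-0.57, SE 0.225). Both had groups apart, with WT1A (for Psmg4 also WT2B) nearest to C234W. Their partners did not separate: Psmg3 had 8.77, 9.15 and 7.5 CPM in wild type and 7.45, 8.25 and 7.32 CPM in C234W (-0.14, SE 0.215), and Psmg2 had a log2 fold change of 0.19 (SE 0.2). Psmc3ip, matched by name, had 6.77, 3.01 and 2.65 CPM in wild type and 2.3, 2.56 and 2.80 CPM in C234W, where WT1A alone stood out.

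**Figure D4:**
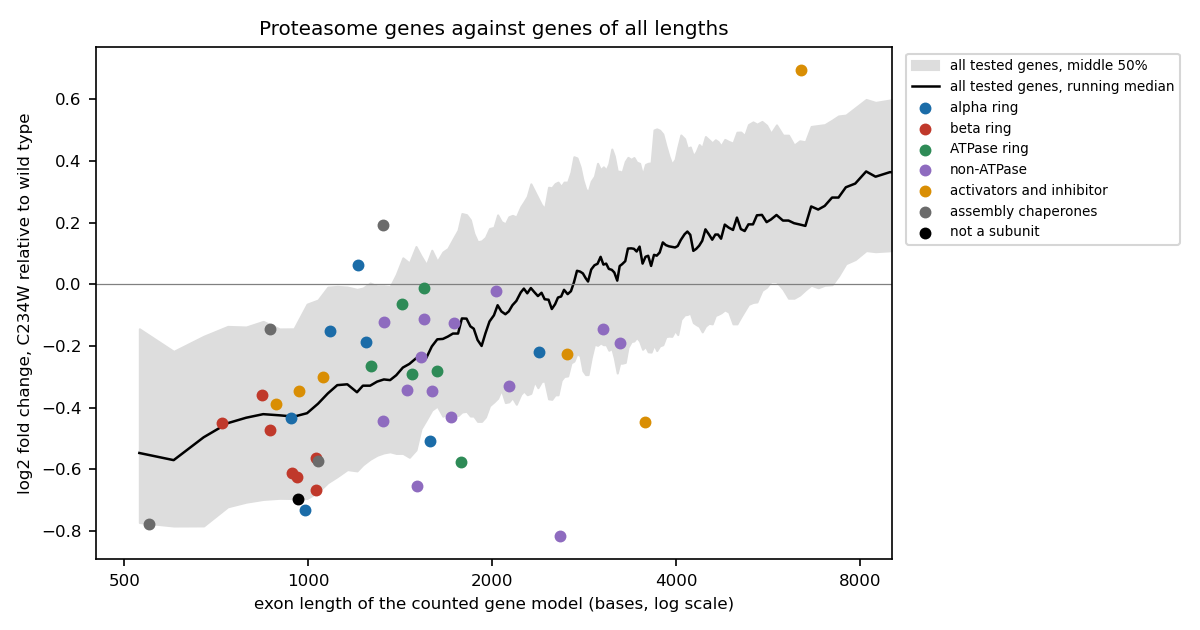
Log2 fold change of C234W relative to wild type (vertical axis) against exon length of the counted gene model (horizontal axis, log scale) for the 45 tested members (points by subgroup), with the running median (line) and the middle 50% (grey) of all tested genes in windows ordered by length. Psmd9 lies farthest below the line for its length, and Psmg2 and Psme4 lie farthest above it.

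Across the 45 members the log2 fold change was related to length with a Spearman rho of 0.37, and across all 14685 tested genes with 0.41; both are descriptions across genes that share libraries. The relation to the mean level of the members was weaker (rho -0.07).

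Of 31 partner genes of the proteasome, 30 were tested, and 3 fell and 0 rose in edgeR (1.53% and 0.293% of all tested genes). Among them Ubb, a polyubiquitin gene, fell from 1296, 1235 and 1329 CPM in WT1A, WT2A and WT2B to 663.1, 683.8 and 656.8 CPM in FS3A, FS3B and FS5A, a log2 fold change of -0.95 (SE 0.152, edgeR adjusted p = 0.0469). Its groups were far apart, and its difference exceeds that of any core subunit. After removal of the length trend Ubb stood at -0.78 on the log2 scale (edgeR adjusted p = 0.0917), in a fit where 1 gene passed in all. Rps27a, a fusion of ubiquitin with a ribosomal protein, had a log2 fold change of -0.058 (SE 0.272) at 7.89 ± 0.57 CPM in wild type (SD, n = 3). Only uniquely mapped tags were counted, and whether this lowers the level of Rps27a was not tested.

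Among the other partners, Pomp, the maturation factor of the beta rings, had 102.5 ± 11.1 CPM in wild type and 62.3 ± 9.95 CPM in C234W (SD, n = 3 each; edgeR adjusted p = 0.0595). On the log2 scale Pomp differed by -0.72, or by -0.33 after removal of the length trend. The shuttle receptor Rad23b had a log2 fold change of -0.60 (SE 0.152), while genes of like length had 0.11, and -0.75 with the length trend removed. Sem1, a small lid subunit whose symbol falls outside the rule, had -0.66 (SE 0.176), near the -0.64 of genes of like length, and -0.19 with the length trend removed. Nfe2l1, the regulator of subunit genes, had 234.6, 231.8 and 243.2 CPM in wild type and 206.6, 255.1 and 188.5 CPM in C234W, with overlapping groups (-0.13, SE 0.159, and -0.34 with the length trend removed). In all, 10 of 30 partners were lower and 2 higher at an unadjusted p under 0.05, against 13.7% and 12.2% of all tested genes. The higher ones were the ubiquitin-activating enzyme Uba6 (0.92, SE 0.283) and the proteasome adaptor Ecpas (0.44, SE 0.161). With the length trend removed these were at 0.70 and 0.11. The inducible subunits Psmb8, Psmb9 and Psmb10, which replace Psmb5, Psmb6 and Psmb7 in immune cells, were low, with wild-type means of 3.49, 1.31 and 12.1 CPM, and their groups overlapped.

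Elovl2 was measured at 141.9, 138.3 and 135.9 CPM in wild type and 82, 90.1 and 116.3 CPM in C234W (-0.53, SE 0.166, edgeR adjusted p = 0.0991); a substitution need not alter the transcript, so this does not check the labels. Libraries held 14184093 to 19298613 counts in genes. Rod markers summed to between 94794 and 149297 CPM in wild type and between 63694 and 84302 CPM in C234W, and all 8 were detected in each library, as were the listed cone, bipolar, amacrine, Muller glia, ganglion and horizontal cell markers. The marker sums of ganglion cells were also lower in C234W (1453 to 1699 CPM in wild type, 1143 to 1449 CPM in C234W). Further sums that separated the genotypes were those of bipolar cells (593.2 to 726.7 CPM in wild type, 909.5 to 996.8 CPM in C234W), erythrocytes (116.8 to 221.6 against 58.4 to 80.4 CPM), endothelium (28.2 to 39.6 against 53.3 to 62.3 CPM) and skeletal muscle (6.24 to 7.86 against 1.92 to 2.62 CPM). No listed marker of these types was at 0 in any library, other than 1 muscle marker each in WT2A, FS3A and FS5A. Whether these cell types have a part in the proteasome values was not tested. Pigment epithelium markers reached 710.2 CPM in WT1A and 70.3 to 167.7 CPM in the other libraries, so the results were also computed without WT1A. Then 12 members passed as lower (Psma6, Psma7, Psmb1, Psmb4, Psmb6, Psmb7, Psmc2, Psmd6, Psmd8, Psmd9, Psmd12 and Psmg1) and Psme4 as higher, against 9.55% and 8.93% of all genes tested, and the edgeR adjusted p was 0.0132 for Psmd9 and 0.0135 for Psme4. At an unadjusted p under 0.05, 19 were lower and 1 higher (17.3% and 18.8% of all genes), and the groups were apart for 30 as lower and 2 as higher (26.7% of all genes each way). Without WT1A the medians were -0.42 for the core and -0.20 for the regulatory particle. With both WT1A left out and the length trend removed, Psmd9 passed as lower and Psme4 as higher, against 7.83% and 4.46% of all genes.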

How the data were processed

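Poly-A RNA of 6 bulk retina libraries was sequenced after strand-specific TruSeq preparation, per the labels' protocols. Per the series' design text and the submitters' processing notes, STAR (2.7.8a) aligned the reads to mm10. HOMER (4.11) then counted tags in exons on the minus strand, per the file headers, taking unique tags and 1 isoform per locus, per the series' design text. What the authors deposited are estimated counts in steps of 0.5, without normalization, which were rounded for the tests. A level thus depends on the isoform kept and on unique mapping. Of the sample columns, 0 were left out.

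Low genes were removed with filterByExpr, and the rest scaled by TMM and compared in edgeR (4.0.16, under R 4.3.3) by the quasi-likelihood test (robust, no covariate) with Benjamini-Hochberg adjustment over 14685 genes and a threshold of 0.05. A negative fold change means lower in C234W. Length trends were removed by a loess offset per library (span 0.3). Genes of like length lay within 20% of a member's length. Alternatives were other scalings and filters, unrounded counts, DESeq2 (1.42.0), limma-voom (3.58.1), summing libraries that share a name number, and leaving out each library.

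Named are, in each subgroup, the 2 members of smallest p, that of smallest absolute log2 fold change and the highest and lowest per length; the catalytic subunits; partners that passed or were among the 3 of smallest p; and Elovl2. Other members and partners were named after their values were seen. Members and lists were chosen with earlier results of these data known. On simulated counts for this comparison (14685 genes) without a length slope, edgeR found 49% of 2-fold and 93% of 4-fold changes. With a simulated length slope of 0.2 per doubling, 94 of its 241 calls were false without the offset. After the offset 8 of 145 calls were false, and the slope measured 0.00508. The simulated slope was linear on the log2 scale and the same in each C234W library, a form that the offset removes by design. This self-test therefore cannot show how well the offset works on the real libraries. Protein sequences were not analysed here. Some partner genes are counted but not reported here by name.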

Additional observations from a re-analysis of the deposited data

How the results depend on the processing

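No paired analysis was possible because the deposited columns carry no replicate number of the labels. Over all tested genes 267 passed (43 higher and 224 lower); the count was 1 with total-count scaling, 1 with the length trend removed at either span, 1754 by DESeq2, 0 with libraries of one name number summed, 0 to 2771 with 1 library left out (2771 without WT1A, 0 without WT2A, WT2B or FS3A, 1 without FS3B, 7 without FS5A) and 1842 with the length trend removed and WT1A left out, a setting chosen after seeing the data like the older quasi-likelihood fit. Of the proteasome genes 0 passed; the count was 11 by DESeq2, 0 to 13 with 1 library left out (13 without WT1A) and 2 without WT1A and the length trend. The 18 lower at an unadjusted p under 0.05 became 8 with total-count scaling, 7 with the length trend removed at either span, 11 with summed libraries and 9 without WT1A and the length trend. Total-count scaling moved the median of all genes to 0.205, and the medians of core and regulatory particle to -0.28 and -0.085. They were -0.18 and -0.16 with the length trend removed (-0.18 and -0.16 at the wider span of 0.5), and -0.15 and -0.098 without WT1A as well. With 1 library left out the core ranged from -0.47 to -0.42 and the regulatory particle from -0.34 to -0.20.

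Of the 28 named genes, Ubb did not pass with total-count scaling, with the length trend removed, with summed libraries, or with any 1 library other than WT1A left out. The sign turned for genes with small differences. With total-count scaling it was positive for Psmc6 (0.17), Psmc4 (0.13), Psmd5 (0.16) and Psmg3 (0.036), and for Psmc6 also with upper-quartile scaling (0.0015). With the length trend removed Psmc6 was at 0.14 (span 0.3 and 0.5), Psmc4 at 0.12, Psmd5 at 0.027 (0.028 at span 0.5) and Psmg3 at 0.20. Psma5 was at -0.070 with summed libraries. With 1 library left out Psma5 ranged from -0.082 to 0.27, Psmc6 from -0.062 to 0.057, Psmc4 from -0.15 to 0.059 and Psmd5 from -0.065 to 0.031. Without WT1A and the length trend Psmb2 (0.18), Psmb3 (0.0057), Psmc6 (0.17), Psmc5 (0.048), Psmc4 (0.24), Psmd5 (0.023), Psmg3 (0.24) and Psmc3ip (0.17) were positive. The cause of each change was not tested. Depth limits Psma8 and Psmb11, whose difference was not detectable.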
